A study of Danio rerio with 6 samples.

Results

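Genes that make and use glutathione, reduce peroxides and remove superoxide were followed in testes of adult wild-type zebrafish (Danio rerio) after a short exposure to polystyrene nanoplastics. The set holds every gene whose symbol begins with gst, gpx, prdx or txnrd, together with catalase, the superoxide dismutases, the glutathione synthesis enzymes and a small group around the transcription factor NRF2. The deposited table lists 32520 genes, of which 51 matched these names, and 50 of them had at least 10 counts in at least 3 libraries. The gene left out is a second TXNRD2 (ENSDARG00000094470), with 0 counts in every library, and the gene nearest to the limit is gpx2 (ENSDARG00000089149), with 36, 102 and 368 counts in 3 libraries and 0 in the other 3. For 5 genes the reference table gives a symbol without the zebrafish paralog letter (NFE2L2, KEAP1, HMOX1 and 2 genes named SOD3). They were taken in as the only genes that could stand for nfe2l2a, keap1b, hmox1a or hmox1b, sod3a and sod3b, and which SOD3 is sod3a cannot be told from that table.

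Testis RNA of 3 exposed and 3 control wild-type fish was sequenced after poly(A) enrichment, with 1 library per animal. For exposed fish polystyrene nanoplastics were put into the water at intervals of 24 h over 96 h. Control fish had no plastic added. Neither particle size nor dose, strain or age beyond adult is stated in the labels, which also carry the word germline although whole frozen testis was used. The names of the libraries join replicate and animal number: exposed 2-2, 3-1 and 3-3, and control 1-2, 2-2 and 3-1. Values in the text follow this order within each group. Levels are counts per 1000000 counts (CPM) scaled by TMM, a correction for differences in RNA composition. They are compared between libraries only, since CPM is not corrected for transcript length. A log2 fold change is exposed over control with its standard error (SE), from edgeR's quasi-likelihood fit over all 26108 genes tested.

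Glutathione is a small thiol peptide that cells keep reduced and use to neutralise peroxides and reactive foreign compounds. Glutathione peroxidases and peroxiredoxins reduce peroxides at the expense of glutathione or thioredoxin, superoxide dismutases turn superoxide into hydrogen peroxide, and catalase breaks that peroxide down. Many of these genes are switched on by NRF2, which the adaptor KEAP1 holds at a low level until oxidants or electrophiles modify it. In the testis, developing sperm carry membranes rich in polyunsaturated lipids, and in mice the lipid peroxidase GPX4 is needed for fertile sperm.

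The libraries held between 76205591 and 108273937 counts, and 10 germ cell, Sertoli and Leydig markers of the testis were found in every library at 91.2 CPM or more. All 10 markers had a log2 fold change below 0. They summed to between 3992 and 4863 CPM in exposed testes and to between 6753 and 8616 CPM in controls. Transcripts of other tissues differed widely between libraries. A list of 47 liver genes summed to 4653, 20402 and 6153 CPM in the exposed libraries and to 3900.3, 1765 and 47488 CPM in the controls, so that exposed 3-1 and control 3-1 stood apart. The 50 genes of an epidermis list summed to 28935, 23117 and 4889 CPM in the exposed libraries and to 3548, 7217 and 3971 CPM in the controls. Of that list 49 of 50 genes had a log2 fold change above 0. Macrophage and neutrophil genes summed to between 3972 and 6813 CPM in exposed testes and to between 1261 and 2789.7 CPM in controls, with 35 of 43 tested above 0. Red blood cell genes summed to between 3541 and 4864 CPM in exposed testes and to between 1033 and 2465 CPM in controls, with 16 of 17 above 0. None of these 4 lists had a gene at 0 in every library. Meiosis genes summed to between 2841 and 4418 CPM in exposed testes and to between 6589 and 7825 CPM in controls, with 28 of 29 below 0. Of 19 Leydig cell genes 15 were below 0, and of 25 Sertoli cell genes 12 were. In such bulk samples fewer cells of a type and less RNA per cell cannot be told apart.

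With all 6 libraries in the fit, defence genes differed between exposed and control testes about as often as all genes, or less often. In edgeR's quasi-likelihood test 0 of the 50 had a p under 0.05 after Benjamini-Hochberg adjustment, beside 0% of all genes tested. The smallest adjusted value in the set was 0.198, for gsto2. At an unadjusted p under 0.05, 4 of 50 were higher in exposed testes (8%, against 9.68% of all genes) and 2 were lower (4%, against 6.79% of all genes). All exposed libraries lay above all controls for 4 genes (8%, against 12.8% of all genes) and below them for 3 genes (6%, against 10.9% of all genes). Log2 fold changes above 0 were found for 26 of the 50, or 52%, against 52.1% of all genes. The median over the 50 was 0.05, beside 0.04 over all genes and -0.09 over the 12741 genes with a mean of at least 10 CPM. DESeq2 called 1 of the 50 higher and 0 lower, where it called 5.35% of all genes higher and 1.34% lower. Counts at an unadjusted p under 0.05 moved with most single libraries left out, and so did the shares over all genes. Without control 2-2 the counts stayed at 4 higher (8%, against 7.19% of all genes) and 2 lower (4%, against 4.23%). Without exposed 2-2, 1 of the 50 was higher (2%, against 6.32% of all genes) and 2 were lower (4%, against 4.79%). Without exposed 3-3, 9 were higher (18%, against 11.2%) and 2 lower (4%, against 8.87%). Without exposed 3-1, 3 were higher (6%, against 7.56%) and 0 lower (0%, against 3.70%). Without control 1-2, 2 were higher (4%, against 7.30%) and 1 lower (2%, against 4.03%). Without control 3-1, 7 were higher (14%, against 9.23%) and 1 lower (2%, against 6.62%). With each of the 6 libraries left out in turn, the 4 higher genes kept an unadjusted p under 0.05 in 5 (gsto2), 4 (GSTM3 and SOD3) and 3 (NFE2L2) of 6 fits, and the 2 lower genes, PRDX3 and prdx1, in 3 of 6 each.

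**Figure D1:**
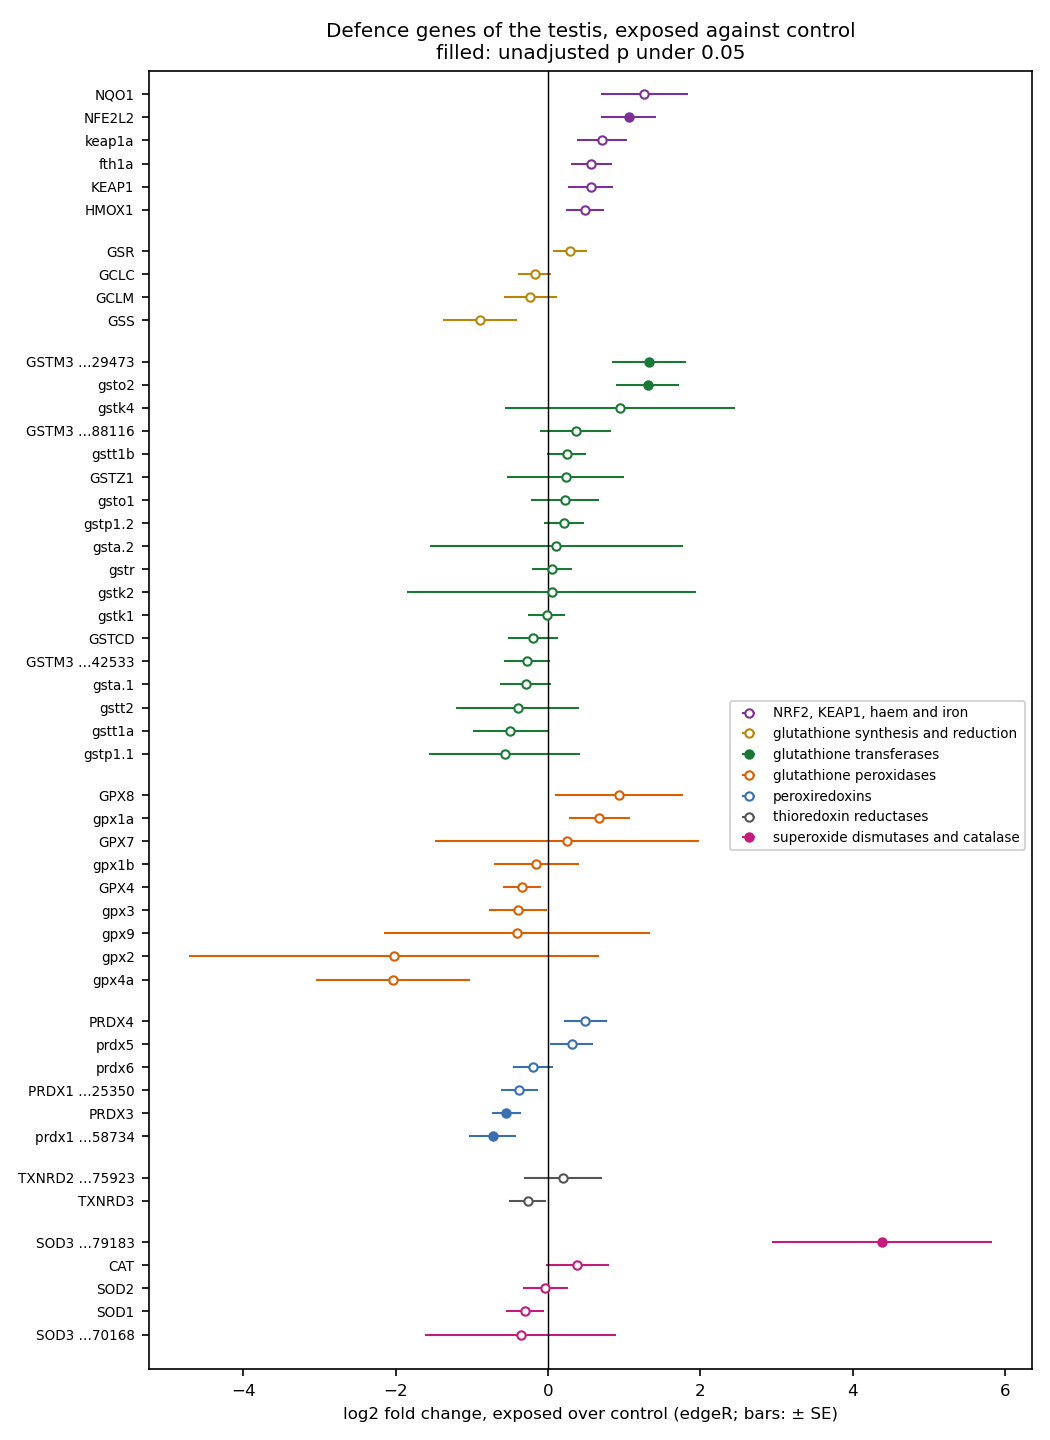
Log2 fold change of each of the 50 defence genes, exposed over control, on the horizontal axis with bars of ± SE, grouped by role down the page. Filled points have an unadjusted p under 0.05 (4 higher, 2 lower), and most of the other bars cross or approach 0, while the 6 genes around NRF2 at the top all lie above 0.

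The group around NRF2 holds the members left after the other role groups were filled. It was the only role group with every gene above 0. Other NRF2 targets had been placed elsewhere, with log2 fold changes of -0.18 (GCLC), -0.23 (GCLM) and 0.21 (gstp1.2). The 6 genes of the group had log2 fold changes from 0.49 to 1.26 and a median of 0.64. All stayed above 0 with each library left out in turn. They also did so under 3 other scalings, which could hardly turn them, since the median over all genes was 0.01 to 0.06 there. NFE2L2 (ENSDARG00000042824), the gene of NRF2 itself, had 280.1, 167 and 108.5 CPM in exposed testes, against 72.6, 82.9 and 110.5 CPM in controls. Exposed 2-2 was far the highest and exposed 3-3 lay within the control range, so the groups overlapped. The log2 fold change was 1.06 ± 0.36 (edgeR adjusted p = 0.219), and 0.64 without exposed 2-2. The 2 genes of its inhibitor showed the same order of exposed libraries. The gene keap1a (ENSDARG00000016132) had 58.7, 31.4 and 26.5 CPM in exposed testes, against 23.4, 26.1 and 21.8 CPM in controls. Exposed 3-3 exceeded the highest control by little. KEAP1 (ENSDARG00000074634) had 57.2, 44.6 and 29.1 CPM in exposed testes, against 30.0, 34.3 and 24.5 CPM in controls, and the groups overlapped. The log2 fold changes were 0.71 ± 0.33 for keap1a and 0.56 ± 0.29 for KEAP1, neither past the threshold (edgeR adjusted p = 0.328 and 0.385). Without exposed 2-2 they were 0.28 and 0.32.

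Of the NRF2 targets in this group, NQO1 (ENSDARG00000010250), which reduces quinones, had 74.9, 28.3 and 17.7 CPM in exposed testes, against 21.1, 9.43 and 19.7 CPM in controls. Again exposed 2-2 was far the highest. Exposed 3-1 also lay above every control, and exposed 3-3 lay between the controls. At a log2 fold change of 1.26 ± 0.57 it did not pass the threshold (edgeR adjusted p = 0.328), and the value was 0.45 without exposed 2-2. The ferritin heavy chain gene fth1a (ENSDARG00000015551), whose protein stores iron in a form that cannot drive radical formation, had 1938, 1434 and 1079 CPM in exposed testes, against 1084, 812 and 1101 CPM in controls. Exposed 3-3 was below the highest control. The difference of 0.57 ± 0.27 on the log2 scale (edgeR adjusted p = 0.343) was 0.33 without exposed 2-2. HMOX1 (ENSDARG00000027529), haem oxygenase, broke the order: exposed 3-3 was its highest library, with 37.5, 32.8 and 49.1 CPM in exposed testes, against 24.3, 26.5 and 34.3 CPM in controls. Exposed 3-1 lay just under the highest control, and the log2 difference was 0.49 ± 0.25 (edgeR adjusted p = 0.384). For 5 of these 6 genes, all but HMOX1, the exposed libraries ranked 2-2, 3-1, 3-3, which is also their order in the summed epidermis list given above. The sum over all 50 defence genes had this exposed order too (6929, 5555 and 4910.4 CPM). Outside the NRF2 group gpx1a, prdx5, SOD1, SOD2 and others also had it, while gpx3, PRDX4, gsto2 and others did not. The order is therefore not particular to the NRF2 group, and its share over all genes was not counted. Among controls the epidermis sum was highest in 2-2. There keap1a and KEAP1 were also highest, but NQO1 and fth1a were lowest, and NFE2L2 was highest in control 3-1. Macrophage, neutrophil and red blood cell lists were higher in every exposed library than in every control. The part of these cell types in the NRF2 group was not tested.

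**Figure D2:**
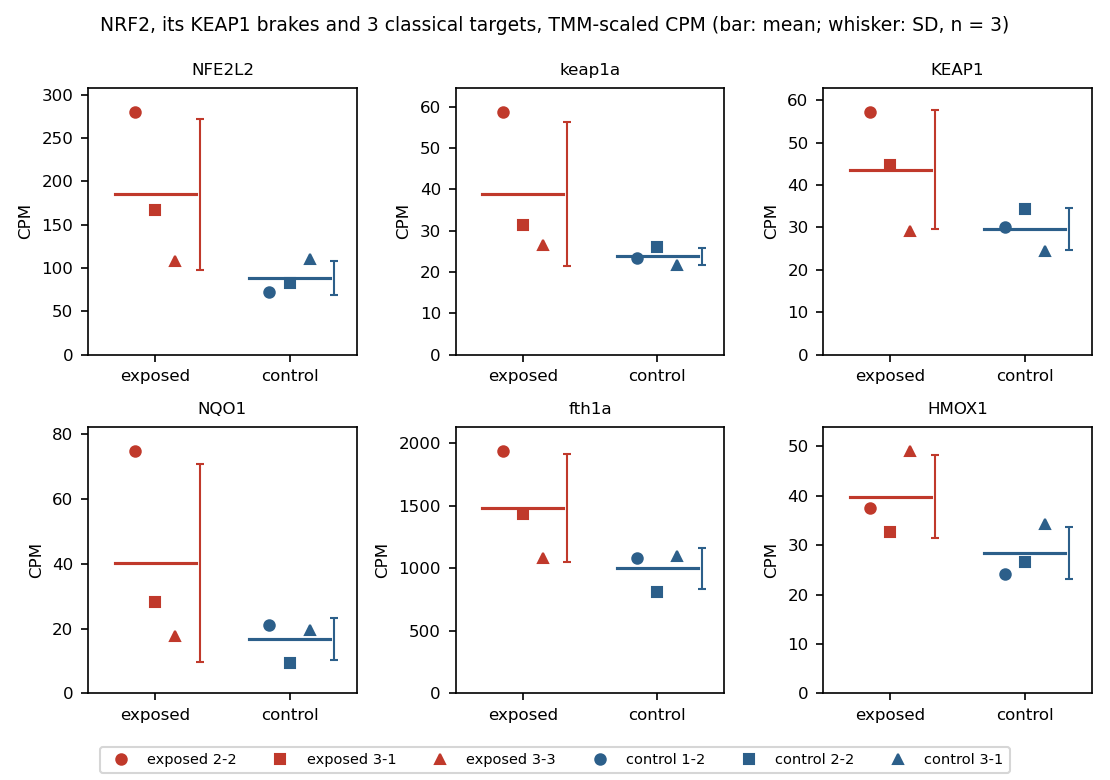
CPM of NFE2L2, keap1a, KEAP1, NQO1, fth1a and HMOX1 in each library (points, 1 shape per library within a group), with group means as horizontal bars and SD as whiskers (n = 3 per group). Exposed 2-2 is the top point in 5 of the 6 panels, and exposed 3-3 lies among or close to the controls in those 5.

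Enzymes that build glutathione, which are also classical NRF2 targets, lay near or below their control levels. The catalytic subunit of the first and limiting enzyme, GCLC (ENSDARG00000013095), had 59.2, 41.3 and 48.5 CPM in exposed testes, against 53.5, 54.9 and 59.9 CPM in controls. Its regulatory subunit GCLM (ENSDARG00000018953) had 30.6, 13.1 and 17.5 CPM in exposed testes, against 21.6, 21.4 and 28.8 CPM in controls. The groups overlapped for both, with log2 fold changes of -0.18 ± 0.21 and -0.23 ± 0.35 (edgeR adjusted p = 0.753 and 0.814). GSS (ENSDARG00000037706), the synthetase of the second step, had 2.73, 2.14 and 4.08 CPM in exposed testes, against 5.27, 4.55 and 6.75 CPM in controls. Every exposed library lay below every control, at a log2 fold change of -0.89 ± 0.48 (edgeR adjusted p = 0.409). GSR (ENSDARG00000019236), the reductase that regenerates glutathione, had 62.8, 49.3 and 75.5 CPM in exposed testes, against 48.4, 47.6 and 57.2 CPM in controls. This amounts to 0.29 ± 0.23 on the log2 scale (edgeR adjusted p = 0.587), with overlapping groups. Summed over the 4 genes, the level was 136 ± 26.2 CPM in exposed testes and 137 ± 13.9 CPM in controls (SD, n = 3 each).

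Glutathione transferases, which join glutathione to electrophiles, were the largest group with 18 genes. Their sum was 1728 ± 226 CPM in exposed testes and 1658 ± 457 CPM in controls (SD, n = 3 each). Log2 fold changes lay above 0 for 11 of 18, or 10 of 18 under upper-quartile scaling, with a median of 0.08. The omega-class gene gsto2 (ENSDARG00000033285) had 43.9, 17.8 and 18.7 CPM in exposed testes, against 12.2, 11.9 and 8.21 CPM in controls. The groups did not overlap and exposed 2-2 was the highest. This gave a log2 fold change of 1.31 ± 0.41 (edgeR adjusted p = 0.198), and 0.75 without exposed 2-2. Its neighbour in class gsto1 (ENSDARG00000022183) had a log2 fold change of 0.22 ± 0.45, which was 0.88 without control 3-1 and -0.07 without control 2-2.

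The reference table calls 3 mu-class genes GSTM3, and the sources used here do not say how reads shared between them were counted. The gene ENSDARG00000029473 had 125, 97.4 and 67.9 CPM in exposed testes, against 46.6, 14.4 and 54.9 CPM in controls. No exposed library overlapped with a control, and the log2 fold change was 1.32 ± 0.49 (edgeR adjusted p = 0.250). It took 15.9%, 15.8% and 12.7% of the counts of the 3 GSTM3 genes in exposed testes, against 10.1%, 2.22% and 7.04% in controls, a share that does not depend on the scaling of the libraries. The other 2 overlapped between groups. ENSDARG00000042533 had 466, 306 and 376 CPM in exposed testes, against 332, 414 and 641 CPM in controls (log2 fold change -0.27 ± 0.30, and 0.02 without control 3-1). ENSDARG00000088116 had 193, 213 and 92.7 CPM in exposed testes, against 85.0, 219 and 83.7 CPM in controls (0.36 ± 0.47, which was 0.96 without control 2-2 and 0.11 without control 3-1). As a result the summed level of the 3 was 646 ± 126 CPM in exposed testes and 630.4 ± 159 CPM in controls (SD, n = 3 each).

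Among the remaining transferases the groups overlapped in every case. The rho-class gene gstr (ENSDARG00000042620), of a class found in fish, had 463, 454 and 451 CPM in exposed testes, against 327, 395 and 595 CPM in controls. Exposed animals were within a narrow range inside the spread of the controls. The pi-class gene gstp1.2 (ENSDARG00000104068), a well-studied NRF2 target in zebrafish, had 376, 226 and 265 CPM in exposed testes, against 212, 254 and 283 CPM in controls. The fitted difference was 0.21 ± 0.26 on the log2 scale (edgeR adjusted p = 0.754). Only exposed 2-2 exceeded the controls, and without it the log2 fold change was -0.03. The theta-class gene gstt1a (ENSDARG00000042428) had 73.6, 80.3 and 59.6 CPM in exposed testes, against 55.9, 54.8 and 189 CPM in controls. Its log2 fold change of -0.49 ± 0.49 rested on control 3-1, without which it was 0.34. The other theta, kappa, alpha, pi and zeta genes and GSTCD had log2 fold changes between -0.57 (gstp1.1) and 0.94 (gstk4), with adjusted p of 0.702 or more in edgeR. Of these, gstk2, gstk4, gsta.2 and gstp1.1 stayed under 5 CPM in every library.

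Glutathione peroxidases split between the groups gene by gene, 3 of 9 above 0 and 6 below, with a median of -0.34. The 2 genes of the lipid peroxidase GPX4 differed in how steady they were. GPX4 (ENSDARG00000076836) had 185, 116 and 167 CPM in exposed testes, against 189, 175 and 229.6 CPM in controls. The groups overlapped and the log2 fold change was -0.34 ± 0.25 (edgeR adjusted p = 0.555). Its paralog gpx4a (ENSDARG00000068478) had 82.7, 117 and 93.4 CPM in exposed testes, against 186, 54.3 and 962 CPM in controls. Control 3-1, the library with the most liver transcripts, held most of the difference: the log2 fold change was -2.04 ± 1.01 with it (edgeR adjusted p = 0.388) and -0.32 without it. In control 3-1 gpx4a took 80.7% of the counts of the pair, against 23.7% to 50.2% in the other 5 libraries.

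The cytosolic peroxidase gene gpx1a (ENSDARG00000018146) had 297, 226 and 161 CPM in exposed testes, against 141, 73.7 and 213 CPM in controls. Overlap came from control 3-1, without which the log2 fold change of 0.68 ± 0.40 (edgeR adjusted p = 0.453) was 1.06. It was smaller without control 2-2 (0.35) and without exposed 2-2 (0.44). Its paralog gpx1b had a log2 fold change of -0.15 ± 0.56. The secreted peroxidase gene gpx3 (ENSDARG00000043342) had 67.1, 63.2 and 145 CPM in exposed testes, against 83.2, 141 and 137 CPM in controls. Exposed 2-2 and exposed 3-1 were below all controls while exposed 3-3 was above them. GPX8 (ENSDARG00000013302), a peroxidase of the endoplasmic reticulum, showed the opposite split, with 58.8, 46.0 and 4.07 CPM in exposed testes, against 16.3, 22.4 and 18.3 CPM in controls. Its high libraries, exposed 2-2 and exposed 3-1, were those with the largest epidermis sums, and exposed 3-3 was below every control. The epidermis sum of exposed 3-3 (4889 CPM) was above those of control 1-2 and control 3-1 (3548 and 3971 CPM). The part of epidermal cells in GPX8 was not tested. GPX7 (0.26 ± 1.73), gpx9 (-0.40 ± 1.75) and gpx2 reached at most 5.18 CPM in any library, and the plotted fold change of gpx2, which had 0 counts in 2 controls and in exposed 2-2, depends on the prior count of the fit.

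Peroxiredoxins held the 2 genes that were lower at an unadjusted p under 0.05 in edgeR. These made up 4% of the defence genes, against 6.79% of all genes, and neither passed the adjusted threshold. Of the 6 peroxiredoxins 2 had a log2 fold change above 0 and 4 below. PRDX3 (ENSDARG00000032102), the peroxiredoxin of mitochondria, had 114, 94.8 and 103 CPM in exposed testes, against 154, 154 and 147 CPM in controls. It had the tightest replicates of the 2 genes, and no exposed library reached a control. The log2 fold change was -0.55 ± 0.19 (edgeR adjusted p = 0.233) and ranged from -0.62 to -0.50 with each library left out in turn. The cytosolic gene prdx1 (ENSDARG00000058734) had 110.4, 74.5 and 84.8 CPM in exposed testes, against 114, 120.0 and 213 CPM in controls. Exposed 2-2 lay just under the lowest control. The log2 difference was -0.73 ± 0.30 (edgeR adjusted p = 0.289), and -0.40 without control 3-1.

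A second gene that the reference table calls PRDX1 (ENSDARG00000025350) had 351, 338 and 338 CPM in exposed testes, against 331, 451 and 549 CPM in controls. The groups overlapped (log2 fold change -0.37 ± 0.24, edgeR adjusted p = 0.491). The pair shares a symbol, and RefSeq's gene table (assembly GRCz12tu) lists prdx1 as a synonym of zebrafish prdx2, so the name of each should be read with its identifier. The rest of the family lay on both sides of 0. PRDX4 (ENSDARG00000069013), which works in the endoplasmic reticulum, had 37.9, 65.8 and 53.2 CPM in exposed testes, against 29.4, 36.0 and 46.3 CPM in controls (0.49 ± 0.28). The gene prdx5 (ENSDARG00000055064) had 296, 250.0 and 158 CPM in exposed testes, against 155, 195 and 216 CPM in controls (0.31 ± 0.28). Both overlapped between groups. The single-cysteine gene prdx6 had a log2 fold change of -0.20 ± 0.26. All 6 genes summed to 902 ± 81.1 CPM in exposed testes and to 1060.2 ± 214 CPM in controls (SD, n = 3 each).

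Peroxiredoxins are recycled by thioredoxin and its reductases. TXNRD3 (ENSDARG00000100374) had 165, 107 and 130.1 CPM in exposed testes, against 152, 140.1 and 191 CPM in controls (log2 fold change -0.27 ± 0.24, edgeR adjusted p = 0.657). The mitochondrial reductase gene TXNRD2 (ENSDARG00000075923) had 2.56, 4.36 and 4.43 CPM in exposed testes, against 3.48, 2.49 and 3.91 CPM in controls (0.20 ± 0.51). Groups overlapped for both. Beside these values, sperm genes summed to between 3231 and 5312 CPM in exposed testes and to between 5969 and 8042 CPM in controls, with 34 of 36 tested below 0 and 1 more listed gene at 0 in every library. The median log2 fold change was -0.93 over the 29 meiosis genes and -0.72 over the 36 sperm genes. Among the 24 defence genes below 0, PRDX3 had -0.55, GPX4 -0.34, TXNRD3 -0.27, prdx1 -0.73, GSS -0.89 and gpx4a -2.04. Others of the 24 lay nearer to 0, such as gstk1 (-0.01), SOD2 (-0.03), GCLC (-0.18), prdx6 (-0.20) and GCLM (-0.23). The remaining 26 of the 50 lay above 0. Without control 3-1, prdx1 had -0.40 and gpx4a -0.32. The part of germ cell content in the values of the defence genes was not tested.

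**Figure D3:**
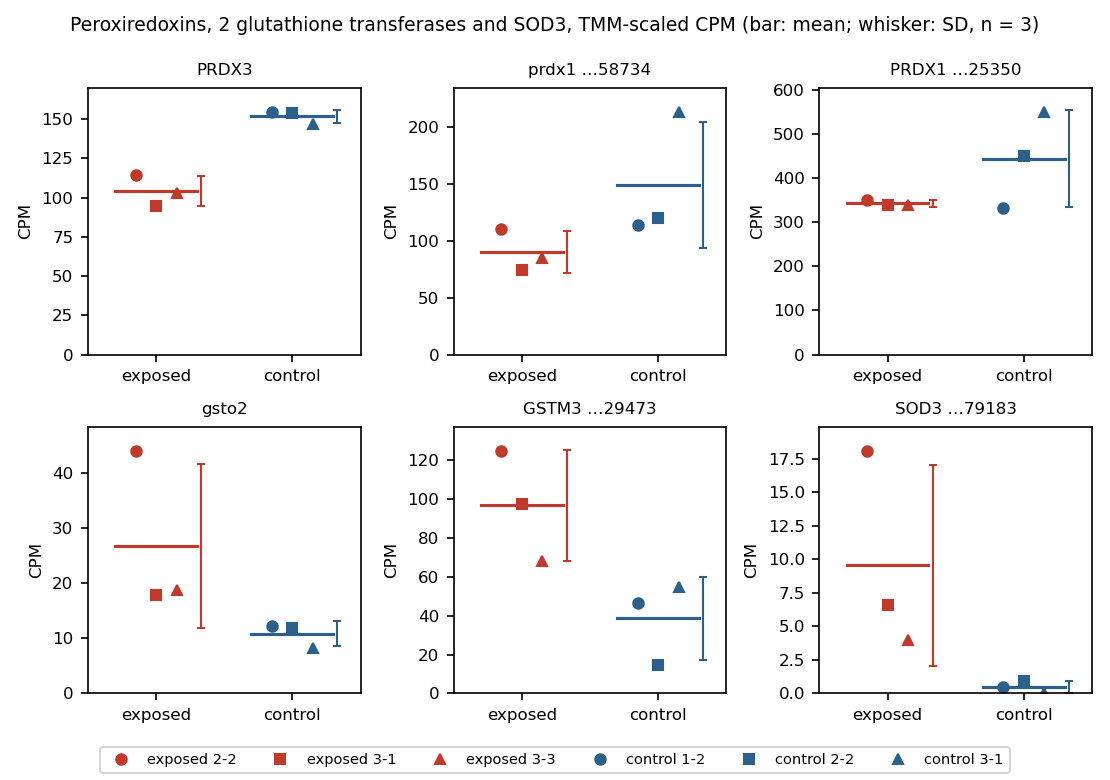
CPM of PRDX3, prdx1, PRDX1, gsto2, GSTM3 (ENSDARG00000029473) and SOD3 (ENSDARG00000079183) in each library (points, 1 shape per library within a group), with group means as horizontal bars and SD as whiskers (n = 3 per group). Exposed points lie below all controls for PRDX3 and prdx1 and above all controls for gsto2, GSTM3 and SOD3, while PRDX1 overlaps.

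Intracellular superoxide dismutases overlapped between the groups. SOD1 (ENSDARG00000043848), the enzyme of the cytosol, had 161, 119 and 116 CPM in exposed testes, against 156, 133 and 201 CPM in controls (log2 fold change -0.30 ± 0.25, edgeR adjusted p = 0.605). SOD2 (ENSDARG00000042644), the mitochondrial enzyme, had 149, 117 and 96.7 CPM in exposed testes, against 79.7, 144 and 148 CPM in controls (-0.03 ± 0.30, edgeR adjusted p = 0.975). Neither showed a shift beyond the spread within groups.

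The largest log2 fold change of the 50 genes belonged to 1 of the 2 genes of the secreted dismutase, SOD3 (ENSDARG00000079183). It had 18.1, 6.61 and 3.96 CPM in exposed testes, against 0.447, 0.918 and 0 CPM in controls. These rest on 1847, 622 and 454 counts in exposed testes, against 40, 72 and 0 counts in controls. The groups did not overlap and exposed 2-2 was again the highest. Fitted by edgeR, the log2 fold change was 4.38 ± 1.44 (adjusted p = 0.221), and 3.53 without exposed 2-2. DESeq2 gave 4.40 with an adjusted p of 0.00282, its only call in the set. The other SOD3 (ENSDARG00000070168) had 0.499, 5.19 and 0.401 CPM in exposed testes, against 1.25, 0.484 and 6.05 CPM in controls. It was high in exposed 3-1 and control 3-1 only.

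Exposed 3-1 and control 3-1, which had the largest liver sums, were also the 2 highest libraries for catalase and for GSTZ1. Catalase, CAT (ENSDARG00000104702), had 134, 215 and 145 CPM in exposed testes, against 87.9, 75.8 and 214 CPM in controls. That is 0.39 ± 0.42 on the log2 scale (edgeR adjusted p = 0.717). The value depended on single libraries in both directions, with 0.99 without control 3-1 but 0.11 without control 2-2, 0.14 without exposed 3-1 and 0.18 without control 1-2. Without exposed 3-1 and control 3-1, a comparison chosen after seeing the data, it was 0.77. GSTZ1 (ENSDARG00000027984), an enzyme of tyrosine breakdown, had 10.6, 30.5 and 8.72 CPM in exposed testes, against 7.06, 5.58 and 29.8 CPM in controls. Its log2 fold change of 0.23 ± 0.77 was -0.56 without exposed 3-1 and 1.37 without control 3-1. The liver fatty acid carrier fabp10a had 64.7, 179 and 139 CPM in exposed testes, against 25.9, 13.7 and 599 CPM in controls. The part of liver RNA in these genes was not tested.

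**Figure D4:**
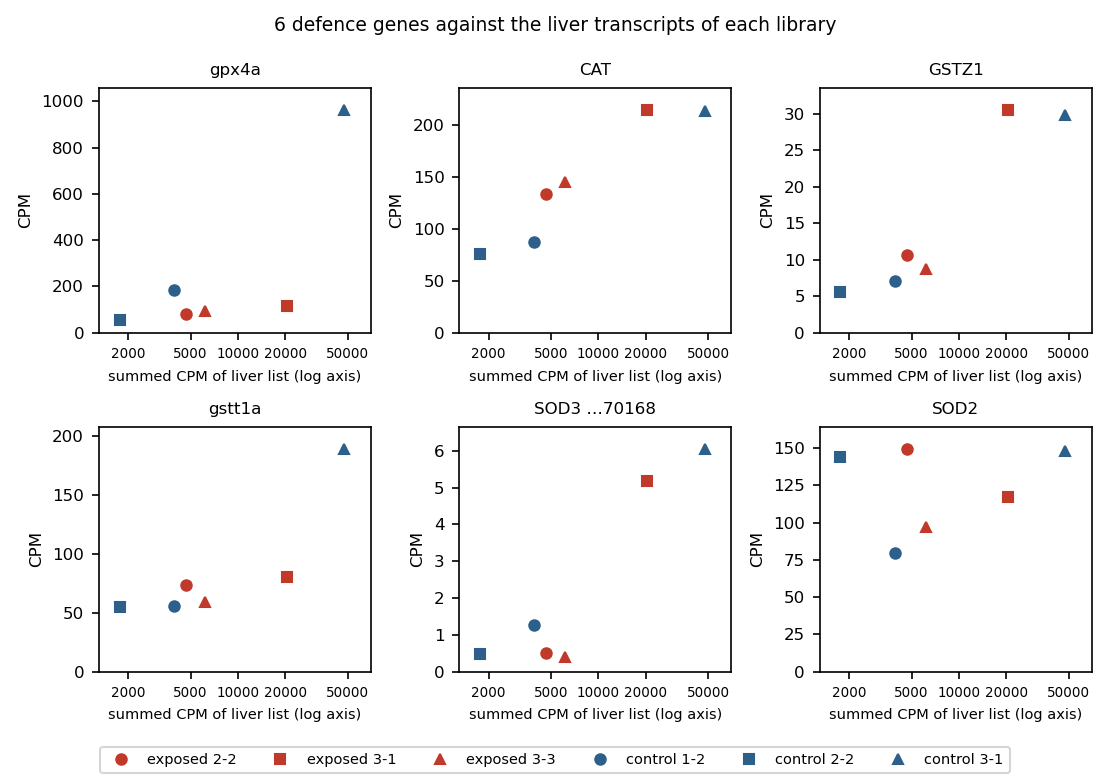
CPM of gpx4a, CAT, GSTZ1, gstt1a, SOD3 (ENSDARG00000070168) and SOD2 in each of the 6 libraries against the summed CPM of 47 liver genes (log axis). The 2 libraries at the right, exposed 3-1 and control 3-1, are the highest for CAT, GSTZ1 and SOD3. Control 3-1 is far the highest for gstt1a and gpx4a, and control 1-2 is next for gpx4a (186 CPM). SOD2 shows no such order.

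Library by library, the set summed to 6929, 5555 and 4910.4 CPM in exposed testes, against 4613, 4709.5 and 7274 CPM in controls. The highest and the lowest sums were both controls. The median gene of the set, relative to its control mean on the log2 scale, stood at 0.23, 0.09 and 0.04 in the exposed libraries and at -0.21, -0.10 and 0.31 in the controls. Control 3-1 was thus the library with the highest median.

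**Figure D5:**
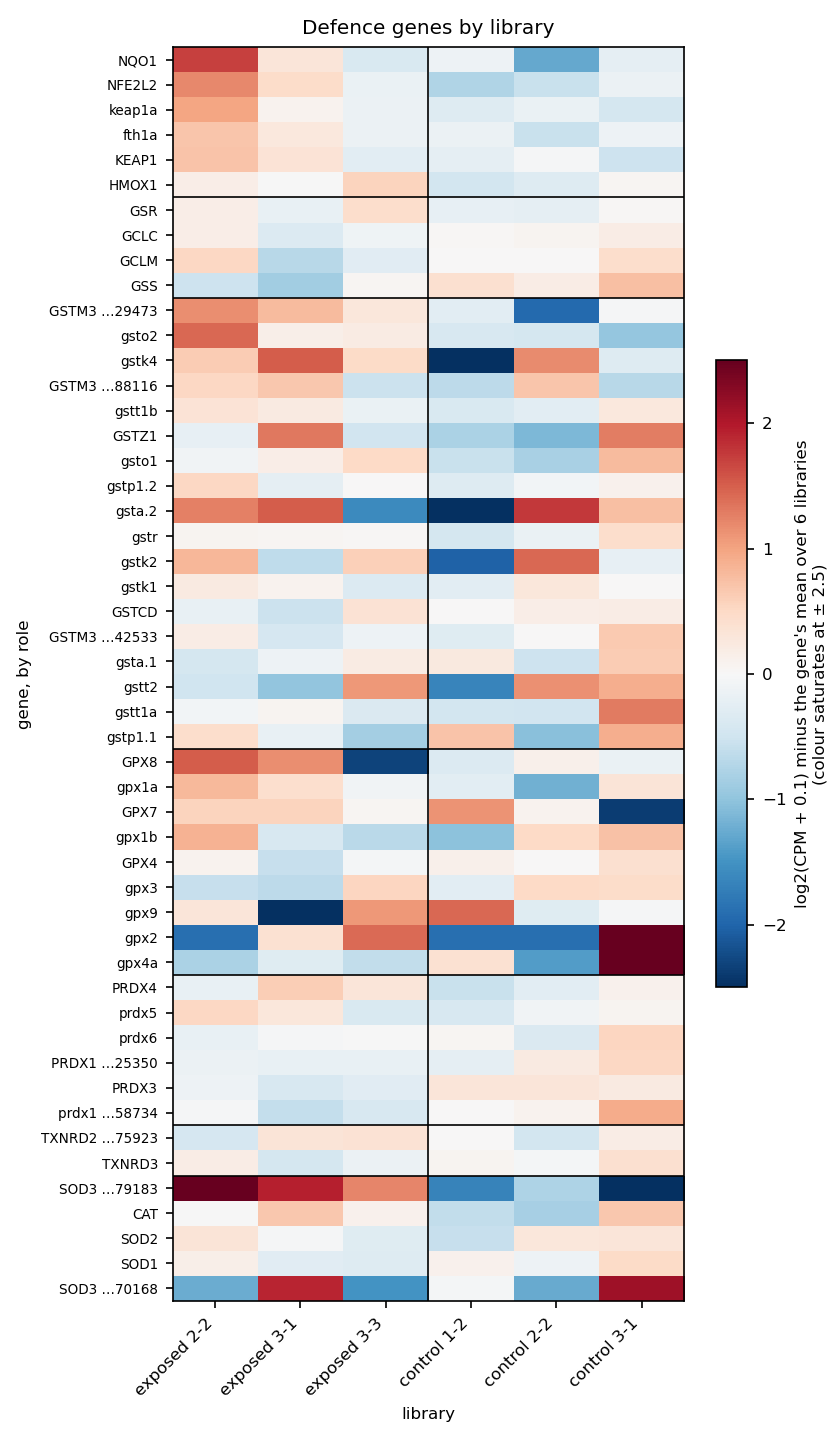
Log2(CPM + 0.1) of the 50 genes in each library minus the gene's mean over 6 libraries, with genes by role down the page and libraries across. Warm colours of the NRF2 group gather in exposed 2-2, and those of gpx4a, gpx2, gstt1a and prdx1 gather in control 3-1.

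Genes that work beside the set were counted in the same way, and none passed edgeR's adjusted threshold. Their counts of genes higher or lower at an unadjusted p under 0.05 stand against 9.68% and 6.79% of all genes. The lists hold 21 to 31 tested genes each. DESeq2, at an adjusted p under 0.05, called 2 thioredoxin-system genes and 2 oxidant-source genes higher. In the NRF2 network it called 1 higher and 1 lower. The glutathione-use, iron and haem, and selenoprotein lists had 1 higher each, and the NADPH list had 0. Over all genes it called 5.35% higher and 1.34% lower. Of 31 thioredoxin-system genes tested, 3 were higher and 1 lower at an unadjusted p under 0.05. TXNIP (ENSDARG00000036107), which binds and inhibits thioredoxin, had 1320.1, 1007 and 1034 CPM in exposed testes, against 457, 422 and 346 CPM in controls. All exposed libraries were far above the highest control, at a log2 fold change of 1.46 ± 0.23 (edgeR adjusted p = 0.132). Thioredoxin itself, TXN (ENSDARG00000031435), had 388, 329.8 and 346 CPM in exposed testes, against 264, 340.2 and 462 CPM in controls (edgeR adjusted p = 0.998). SESN1 (ENSDARG00000020693), a stress-induced sestrin, had a log2 fold change of 1.18 ± 0.34.

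Of the 21 genes tested from the NRF2 network, 1 was higher and 2 lower at an unadjusted p under 0.05. They lay on both sides of 0, with 10 above, 11 below and a median of -0.09. Their sum was 1046 ± 135 CPM in exposed testes and 1266 ± 121 CPM in controls (SD, n = 3 each). BACH1 (ENSDARG00000002196), a repressor that competes with NRF2 on DNA, had 137, 56.7 and 30.8 CPM in exposed testes, against 25.1, 21.0 and 16.9 CPM in controls. The groups did not overlap and the log2 fold change was 1.83 ± 0.52 (edgeR adjusted p = 0.185). DPP3 (ENSDARG00000020676), which binds KEAP1, had a log2 fold change of -0.83 ± 0.22. CUL3, the ubiquitin ligase scaffold that works with KEAP1, and nfe2l3, a relative of NRF2, had -0.51 ± 0.26 and -0.57 ± 0.35.

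For other users of glutathione, 1 of 28 genes was higher and 1 lower at an unadjusted p under 0.05, beside 9.68% and 6.79% of all genes. The amino acid transporter subunit slc3a2a (ENSDARG00000036427), partner of the cystine importer, had 87.6, 73.0 and 38.1 CPM in exposed testes, against 21.1, 23.6 and 19.9 CPM in controls. All exposed libraries were above the controls, at a log2 fold change of 1.62 ± 0.32 (edgeR adjusted p = 0.141). GLRX3, a glutaredoxin of iron-sulfur delivery, had -0.78 ± 0.24, mgst3b, a microsomal transferase, 0.50 ± 0.24, and GLO1, which detoxifies methylglyoxal, 0.00 ± 0.26. Of 21 NADPH-supplying genes 2 were higher and 1 lower. Among them PGD, which yields NADPH from phosphogluconate, had a log2 fold change of 0.57 ± 0.23. NNT and ALDH1L1 had -0.48 ± 0.31 and 0.03 ± 1.05.

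Of 26 selenoprotein genes 5 were higher and 3 lower at an unadjusted p under 0.05, beside 9.68% and 6.79% of all genes. The gene selenop (ENSDARG00000093549), of the selenium carrier, had 3016, 2625 and 1295 CPM in exposed testes, against 926, 1145 and 1539 CPM in controls. Exposed 3-3 lay inside the control range. The small selenoprotein genes selenow1 and selenow2b had log2 fold changes of 1.06 ± 0.41 and 3.01 ± 0.78, and selenou1a -0.76 ± 0.26. Of 30 iron and haem genes 2 were higher and 1 lower. They include ALAS1, the first enzyme of haem synthesis, at 1.47 ± 0.43, and blvrb, a biliverdin reductase, at 0.81 ± 0.31. The ferritin gene fthl27 had -0.17 ± 0.22, and the metalloreductase gene STEAP4 had -4.20 ± 1.93, with 2855 CPM in control 3-1 and between 15.7 and 74.8 CPM in the other 5 libraries. Of 23 genes for sources of oxidants 4 were higher and 0 lower, beside the same shares of all genes. The NADPH oxidase regulator rac2, used by blood cells, had a log2 fold change of 1.25 ± 0.28, and mao, monoamine oxidase, had 1.11 ± 0.37. The oxidase subunit cyba had 0.91 ± 0.67.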

How the data were processed

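Testis libraries of 3 exposed and 3 control zebrafish were analysed from raw counts per Ensembl gene, deposited by the authors as 1 table with 1 column per animal and 0 columns left out. Per the submitters' processing notes reads were aligned with STAR to GRCz11. The sources used here give neither the STAR version nor the counting tool, the use of strand or the handling of mates and shared reads, so values of close paralogs are uncertain. Between 66.8% and 75.1% of counts from 10 to 99 were even numbers, so halved counts were tried as an alternative. No pair of libraries agreed within sampling noise (lowest chi-square over degrees of freedom 161). Intervals of counting error do not cover variation between animals.

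Symbols came from a reference table that names 29201 of 32520 identifiers. Counts were filtered with filterByExpr (26108 genes), TMM-scaled and fitted in edgeR 4.0.16 (robust quasi-likelihood, group only, two-sided, Benjamini-Hochberg over all genes at 0.05) in R 4.3.3, with summaries in Python 3.11.15. SE is the absolute log2 fold change over the square root of F. Alternatives were DESeq2 1.42.0, limma voom 3.58.1, other scalings, filters and quasi-likelihood settings, a replicate block and leaving out libraries. The procedure was also run on simulated counts, where the check covered only the direction and size of large changes. It set no limit on missed or false calls. With 3 against 3 an exact permutation test cannot go below p = 0.1, so none was run. Nothing beyond the titles says how animals were housed, and exposed 3-1 and exposed 3-3 carry the same replicate number. The p-values set the group difference against the spread between these animals. They treat each animal as independent, which could not be checked.

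The members, the gene lists and the rules were chosen with earlier results of these data known. Library values are given for the 3 genes with the highest mean CPM of each role, the 10 smallest p in each direction and a fixed list of central genes. GPX8, GSTZ1, fabp10a, the second SOD3 and GSTM3 ENSDARG00000088116 were named after their values were seen. From each list of neighbouring genes the text names the 2 most counted genes and the 2 with the smallest p, except 1 gene that is not reported here.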

Additional observations from a re-analysis of the deposited data

How the results depend on the processing

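The count of defence genes past an adjusted p of 0.05 was 0 in every fit but DESeq2, which called 1 (SOD3, ENSDARG00000079183). At an unadjusted p under 0.05 counts moved little under other tests, scalings, filters and halved counts. Between 4 and 6 genes were higher (8% to 12%, beside 7.15% to 12% of all genes). The count of lower genes was 2, or 3 with DESeq2 (4% or 6%, beside 4.84% to 7.80% of all genes). With libraries left out in turn the count of higher genes ran from 1 (without exposed 2-2, beside 6.32% of all genes) to 9 (without exposed 3-3, beside 11.2%). The count of lower genes ran from 0 to 2 (beside 3.70% to 8.87% of all genes), and the median log2 fold change from -0.13 to 0.22. Without control 3-1 and exposed 3-1, chosen after seeing the data, 6 genes were higher and 0 lower (7.99% and 4.26% of all genes), with a median of 0.20. With the replicate block 2 were higher and 0 lower (7.62% and 3.35% of all genes). The labels do not say what replicate numbers mean. In exposed and control libraries of the same number, deviations from the group means correlated across genes between -0.03 and 0.02. Deviations within a group of 3 cancel out, which ties these correlations to each other. They therefore cannot exclude a shared effect of the replicate number. Exposed 3-1 and exposed 3-3 also share a replicate number, and that pair within a group was not examined. Over the single leave-outs 17 of 50 genes took both signs. They are gpx2, gpx9, GPX7, gstk1, gstk2, gsta.2, prdx6, SOD3 ENSDARG00000070168 (-2.54 to 1.2), gstt2 (-1.29 to 0.02), gpx1b (-0.79 to 0.15), GSTZ1, gsto1 and, among genes with library values under the naming rule, gstr (-0.12 without control 1-2, -0.0288 without control 2-2, highest 0.32), gstp1.2 (-0.0252 without exposed 2-2, highest 0.35), SOD2 (0.0730 without control 2-2, 0.0926 without control 3-1, 0.10 without exposed 3-3, lowest -0.27), gstt1a (0.34 without control 3-1, lowest -0.80) and GSTM3 ENSDARG00000042533 (0.0188 without control 3-1, lowest -0.46). For the replicate block and for the fit without control 3-1 and exposed 3-1, direction was followed only in genes under the naming rule. With the replicate block gstr turned (-0.13). Without control 3-1 and exposed 3-1 the direction turned for TXNRD3 (0.0118), SOD2 (0.14), gstt1a (0.26), GSTM3 ENSDARG00000042533 (0.18) and GCLM (0.16). Members outside the naming rule may have turned too. Leaving out a library shows only that a value depends on that library. The cause of these changes of direction was not tested. The scaling of summed levels by library totals moved none of the 7 role groups beyond the spread between libraries. With 3 animals a group, a missed threshold does not show that levels are alike.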
